A study of Mus musculus and Homo sapiens with 8 samples.

Results

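The genes described here are the numbered zinc finger genes of the human genome, those whose symbol is ZNF followed by digits only, in MDA-MB-231 cells exposed to olaparib. Members were chosen by symbol and by a mean of at least 100 counts over the 2 human libraries, and 121 of 439 such symbols in a table of 25611 gene symbols qualified. MDA-MB-231 is an established triple-negative breast cancer line. Its cells were treated for 3 days with 40 µM olaparib, an inhibitor of the DNA repair enzymes PARP1 and PARP2, or with the solvent DMSO, and the RNA of each culture was sequenced as 1 library per condition. The series also holds 6 mouse libraries of osteoclasts and macrophages, which were not used here. With 1 library per condition no test was possible: every difference below compares 2 libraries, with no replicate check, and intervals cover counting error only.

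C2H2 zinc fingers are small protein folds, each held together by a zinc ion and each able to read a few bases of DNA. Proteins with many such fingers in a row form the largest class of human transcription factors. Many carry a KRAB domain, which recruits the corepressor TRIM28 and, through it, the histone methyltransferase SETDB1 and HP1 proteins, so that the bound DNA is packed as heterochromatin marked by H3K9 methylation. Many KRAB zinc finger proteins bind retroelements. The ZNF symbol is a naming series rather than a function, and it also covers proteins of other kinds, such as the ubiquitin ligase ZNF598 and the LIM-domain protein ZNF185.

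The olaparib library held 6878212 counts and the DMSO library 7472981. The 121 members took 26007 of them in olaparib (0.378%) and 33377 in DMSO (0.447%). Of 6 mesenchymal genes listed for the line, VIM had 6099 counts in olaparib and 8387 in DMSO, and CD44 had 2419 in olaparib and 2892 in DMSO. AXL had 4492 in olaparib and 8427 in DMSO, and TGFBI had 294 in olaparib and 259 in DMSO. CAV1 (1771 in olaparib and 4809 in DMSO) and LGALS1 (10698 in olaparib and 5194 in DMSO) went opposite ways. The luminal genes GATA3 and EPCAM had 9 and 29 counts in olaparib and 10 and 44 in DMSO. Of the receptor genes that define triple-negative tumours, ESR1 had 0 counts in both libraries, PGR had 0 in olaparib and 7 in DMSO, and ERBB2 had 883 in olaparib and 710 in DMSO. The leukocyte gene PTPRC had 1 count in olaparib and 6 in DMSO, and the macrophage gene CD68 had 0 in both, while the endothelial gene PECAM1 had 45 in olaparib and 20 in DMSO, the fibroblast collagen COL1A1 had 66 in olaparib and 70 in DMSO, and the myeloid gene LYZ had 1 in each. Other properties of the 2 libraries moved with the treatment. The proliferation genes MKI67 (890 counts in olaparib and 4044 in DMSO) and TOP2A (860 in olaparib and 3701 in DMSO) were lower in olaparib, with a 95% counting interval of the log2 ratio of olaparib over DMSO of -2.11 to -1.90 for MKI67 and -2.03 to -1.82 for TOP2A, and CCNB1 had a ratio of -0.23. Cytoplasmic ribosomal protein genes took 7.0% of counts in olaparib and 4.08% in DMSO, and mitochondrially encoded genes 4.75% in olaparib and 5.61% in DMSO. Their part in the ZNF values was not tested. These are whole-culture RNA measurements, so fewer cells with a transcript and less transcript per cell cannot be told apart.

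Ratios are log2 of olaparib over DMSO after TMM scaling, which sets the 2 libraries on a common scale by a trimmed mean of the gene ratios, with a pseudocount of 1. A ratio of 0.5 was taken as the smaller size threshold and a ratio of 1 as the larger. The counting interval of a member's ratio had a median half-width of 0.31 log2 (0.16 to 0.58 over the members), so the smaller threshold lay outside the counting error of most members but not of the weakest ones.

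The ZNF members did not move as a block. Of 121 members, 46 were lower in olaparib by at least 0.5 log2 (38.0%, against 33.5% of the 8682 genes with a mean of at least 100 counts), 25 were higher by at least 0.5 (20.7%, against 28.0% of all genes) and 50 lay between. At the larger threshold 30 were lower (24.8%, against 20.4%) and 3 were higher (2.48%, against 7.20%). With TMM scaling the shares of lower members were thus near those of all genes. The shares of higher members were smaller than those of all genes, by an amount that depended on the scaling. With upper-quartile scaling 34 of 121 members were higher by at least 0.5 (28.1%), against 2689 of 8682 genes. At the larger threshold 3 members were higher with that scaling, against 737 of 8682 genes. The median ratio was -0.15, against 0.01 for all genes, and the SD over genes was 0.89 for the members and 0.92 for all genes. These comparisons are not matched for mean count. Members had means of 100 to 694 counts, while the 8682 genes also include higher means. In 4 ranges of rising mean, 50%, 30%, 43.3% and 29% of members were lower by at least 0.5. The shares of all genes there were 46.3%, 42.2%, 40.5% and 32.8%. In the same order 16.7%, 20%, 10% and 35.5% of members were higher, against 22.3%, 25.4%, 23.2% and 28.2% of all genes. On the deposited scale, which shifts the median of all genes by -0.18, the counts past 0.5 were 54 lower (44.6%, against 39.0% of all genes) and 11 higher (9.09%, against 18.5%).

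**Figure D1:**
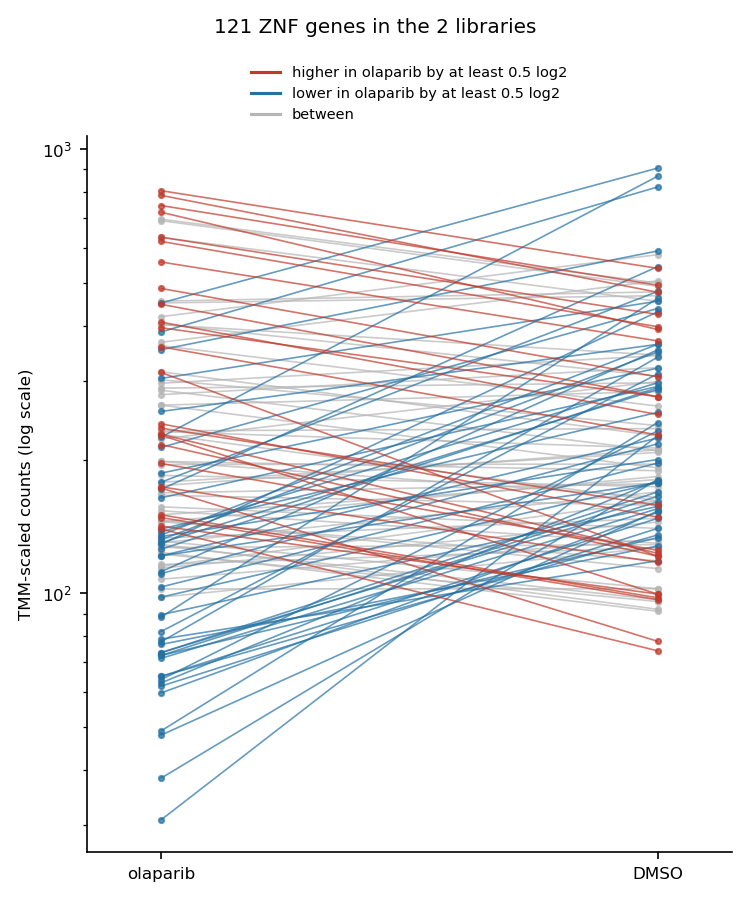
TMM-scaled counts (log axis) of 121 ZNF genes in the olaparib library (left) and the DMSO library (right), 1 line per gene and 1 library per condition, with no error bars. The 46 blue lines (lower in olaparib by at least 0.5 log2) reach further down on the olaparib side, the 25 red lines (higher by at least 0.5) slope the other way, and the 50 grey lines are nearly flat.

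The members' counts ran from 29 to 757 in olaparib, with a median of 156, and from 79 to 965 in DMSO, with a median of 221. Both libraries had at least 100 counts for 92 members; 25 were under 100 in olaparib only and 4 in DMSO only. The choice by mean count therefore kept genes that are low in one library, and among the 92 with at least 100 counts in both the median was 0.03, on the other side of 0, with 23 lower and 23 higher by at least 0.5 (25% each). The same limit gave a median of 0.12 for all genes, with 27.2% lower and 29.6% higher. Just inside the limit were ZNF277 (74 counts in olaparib and 126 in DMSO), ZNF786 (96 in olaparib and 109 in DMSO) and ZNF134 (61 in olaparib and 144 in DMSO). Just outside were ZNF576 (114 in olaparib and 84 in DMSO), ZNF213 (90 in olaparib and 108 in DMSO) and ZNF714 (57 in olaparib and 141 in DMSO).

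The lowest ratios belonged to genes of several kinds. ZNF638, a nuclear RNA-binding protein that takes part in silencing unintegrated retroviral DNA, had 29 counts in olaparib and 241 in DMSO, a ratio of -2.83 (95% counting interval -3.48 to -2.31). This was the lowest of all 121 ratios. ZNF146, a protein made almost only of zinc fingers and overexpressed in several carcinomas, had 83 counts in olaparib and 491 in DMSO (-2.37, interval -2.74 to -2.05). ZNF507 had 46 in olaparib and 258 in DMSO (-2.28), and the KRAB protein ZNF12 had 36 in olaparib and 192 in DMSO (-2.20). For each of these genes the olaparib library held a small fraction of the DMSO count, and the intervals stayed below -1.7.

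ZNF148, which binds GC-rich promoters, had 73 counts in olaparib and 362 in DMSO (-2.11, interval -2.51 to -1.76). ZNF106, an RNA-binding protein needed by motor neurons in mice, had 211 in olaparib and 925 in DMSO (-1.95, interval -2.17 to -1.73), the narrowest interval of the 12 lowest. ZNF532, a partner of the chromatin reader ZMYND8, had 77 in olaparib and 332 in DMSO (-1.91). With ZNF121 (60 counts in olaparib and 247 in DMSO, -1.84), the 8 genes named so far were the members (6.61% of them) at or below -1.81, the ratio that marks the lowest 5% of all genes.

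The rest of the 12 lowest were ZNF621, ZNF24, ZNF510 and ZNF451. ZNF621 had 121 counts in olaparib and 458 in DMSO (-1.73). The SCAN-domain factor ZNF24 had 161 in olaparib and 579 in DMSO (-1.66). ZNF510 had 45 in olaparib and 163 in DMSO (-1.66), with an interval of -2.19 to -1.19. ZNF451, a SUMO ligase that also acts on trapped topoisomerase II, had 105 in olaparib and 376 in DMSO (-1.65, interval -1.99 to -1.34).

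The 12 highest ratios were smaller in size. ZNF581 led with 295 counts in olaparib and 129 in DMSO, a ratio of 1.37 (interval 1.07 to 1.68). ZNF511 had 213 in olaparib and 106 in DMSO (1.18, interval 0.85 to 1.54), and ZNF688 had 162 in olaparib and 83 in DMSO (1.14, interval 0.76 to 1.55). Only these 3 members passed 1 log2 upwards, and the same 3 lay above the 95th percentile of all genes, which was 1.10. Below them, ZNF653, a corepressor of the steroidogenic factor SF-1, had 131 counts in olaparib and 79 in DMSO (0.90, interval 0.50 to 1.33).

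ZNF48 had 214 counts in olaparib and 131 in DMSO (0.88), ZNF787 had 677 in olaparib and 418 in DMSO (0.88), and ZNF71 had 203 in olaparib and 129 in DMSO (0.83). Of these, ZNF787 had the most counts and the narrowest interval, 0.70 to 1.06. ZNF76 had 739 in olaparib and 507 in DMSO (0.72), ZNF428 had 226 in olaparib and 158 in DMSO (0.69), ZNF672 had 420 in olaparib and 295 in DMSO (0.69) and ZNF358 had 383 in olaparib and 269 in DMSO (0.69). ZNF746, a repressor known as PARIS and a substrate of the ubiquitin ligase parkin, closed the group with 456 in olaparib and 327 in DMSO (0.66). All 12 intervals lay above 0.

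**Figure D2:**
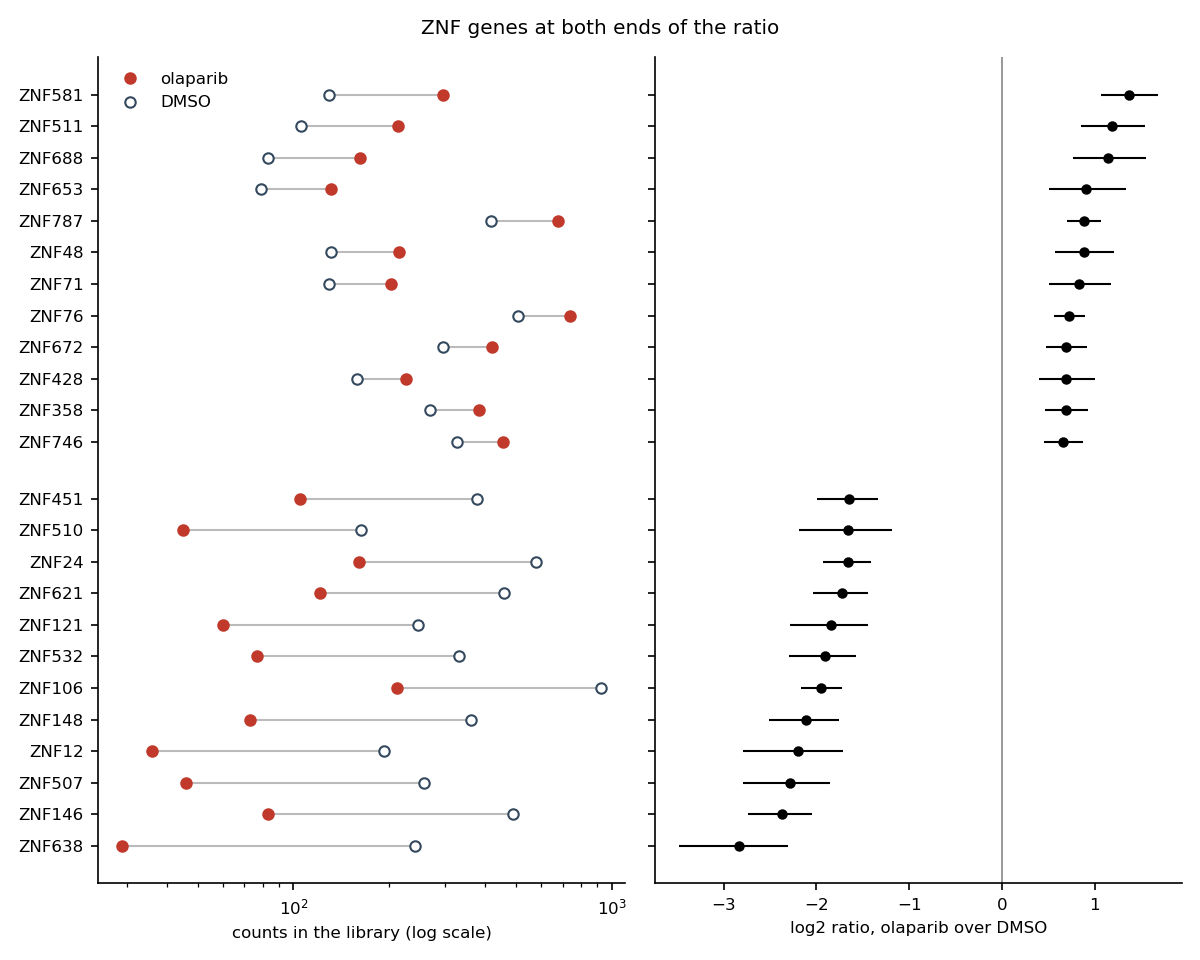
The 12 ZNF genes with the highest and the 12 with the lowest ratio: counts in the olaparib (filled) and DMSO (open) library on a log axis (left), and the log2 ratio of olaparib over DMSO with its 95% counting interval (right). The lowest ratios reach -2.83 at ZNF638, while the highest stop at 1.37 at ZNF581.

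The 10 members with the highest mean counts showed both directions. ZNF664 had the highest mean of all, with 423 counts in olaparib and 965 in DMSO (-1.01), and ZNF207 and ZNF106 were the other two that were lower. The remaining 7 were higher in olaparib by 0.48 to 0.88 log2: ZNF598, ZNF76, ZNF282, ZNF316, ZNF768, ZNF787 and ZNF219. Among them ZNF316 had 653 counts in olaparib and 532 in DMSO (0.48), ZNF768 had 648 in olaparib and 523 in DMSO (0.49), and ZNF219 had 594 in olaparib and 484 in DMSO (0.48). Gene length was not used here, so counts of different genes are not compared as levels.

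Of 12 genes listed for roles in genome maintenance and mitosis, 7 were members, with 3 lower by at least 1 log2 (42.9%, against 20.4% of all genes), 0 higher by 0.5 (against 28.0%) and a median of -0.22. With lists this short, 1 gene moves a share by a large step, and nothing is read from the shares of this list or of the role lists below. ZNF207, the BuGZ protein that helps load the checkpoint protein BUB3 on kinetochores, had 364 counts in olaparib and 875 in DMSO (-1.08, interval -1.26 to -0.91). ZNF281, a factor that also takes part in end joining, had 127 in olaparib and 387 in DMSO (-1.42), and ZNF451 is given above. The other 4 members of the list lay between -0.22 and 0.35: ZNF618, a partner of UHRF2 (167 counts in olaparib and 221 in DMSO), ZNF335, a cofactor of histone H3K4 methylation (272 in olaparib and 317 in DMSO), ZNF384, which binds DNA ends with Ku (186 in olaparib and 175 in DMSO), and ZNF668 (115 in olaparib and 102 in DMSO). Under the limit were ZNF432, a reader of poly(ADP-ribose) (31 in olaparib and 64 in DMSO), ZNF830 (58 in olaparib and 90 in DMSO), ZNF506 (60 in olaparib and 101 in DMSO), ZNF280C (7 in olaparib and 30 in DMSO) and ZNF365 (1 in olaparib and 4 in DMSO).

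Proteins that act on RNA and ribosomes had ratios on both sides of 0. ZNF598, the ubiquitin ligase that marks collided ribosomes, had 757 counts in olaparib and 574 in DMSO (0.58, interval 0.42 to 0.74), and ZNF622, a maturation factor of the large ribosomal subunit, had 372 in olaparib and 295 in DMSO (0.51, interval 0.29 to 0.74). ZNF326, which links splicing to RNA polymerase II elongation, had 129 in olaparib and 317 in DMSO (-1.11), and the nucleolar protein ZNF330 had 131 in olaparib and 272 in DMSO (-0.87). With ZNF638, 3 of the 7 members of this list were lower by at least 0.5 (42.9%, against 33.5% of all genes) and 2 were higher (28.6%, against 28.0%), with a median of -0.07. ZNF346, which binds double-stranded RNA (156 in olaparib and 168 in DMSO), and ZNF706 (427 in olaparib and 508 in DMSO) lay within 0.07 of 0.

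Factors that bind promoters lay on both sides of 0, with the 7 members of the list running from -2.11 to 0.72. On the lower side were ZNF148 and ZNF24, given above, and the BTB-domain protein ZNF131 (118 counts in olaparib and 309 in DMSO, -1.20, interval -1.53 to -0.90). On the upper side were ZNF76, ZNF746, ZNF263 (269 in olaparib and 223 in DMSO, 0.45) and ZNF384. Not all of these are activators: ZNF746 is a repressor. ZNF76 and ZNF143 are closely related proteins that read the same promoter element, and their values went opposite ways: ZNF143, under the limit on the mean, had 26 counts in olaparib and 120 in DMSO, a ratio of -1.99 (interval -2.70 to -1.40), against 0.72 (interval 0.56 to 0.89) for ZNF76.

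Chromatin partners ran from -1.91 to 0.58. ZNF532, ZNF592 and ZNF687 are related proteins that associate with ZMYND8, and they had ratios of -1.91, -0.20 and 0.58. ZNF592 had 263 counts in olaparib and 343 in DMSO, and ZNF687 had 595 in olaparib and 452 in DMSO (interval 0.40 to 0.76). ZNF462, whose mouse counterpart recruits heterochromatin proteins in embryonic stem cells, had 124 in olaparib and 372 in DMSO (-1.40). ZNF644, a partner of the histone methyltransferases EHMT1 and EHMT2, had 154 in olaparib and 311 in DMSO (-0.83, interval -1.12 to -0.55). ZNF274, which brings SETDB1 to the ends of other ZNF genes, had 209 in olaparib and 319 in DMSO (-0.43, interval -0.69 to -0.17). In all, 3 of the 6 members of this list were lower by at least 0.5 (50.0%, against 33.5% of all genes) and 1 was higher (16.7%, against 28.0%), with a median of -0.63. Under the limit were ZNF827 (54 in olaparib and 134 in DMSO), ZNF518A (18 in olaparib and 96 in DMSO) and ZNF518B (32 in olaparib and 77 in DMSO).

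Of genes known from breast tumours, ZNF217, an oncogene amplified in breast cancer, had 332 counts in olaparib and 628 in DMSO (-0.74, interval -0.93 to -0.54). ZNF704 had 175 in olaparib and 342 in DMSO (-0.78, interval -1.06 to -0.52), and ZNF282, a coactivator of the oestrogen receptor, had 701 in olaparib and 526 in DMSO (0.59, interval 0.43 to 0.76). ZNF703, the luminal oncogene, was just under the limit with 120 in olaparib and 76 in DMSO, and ZNF652 had 48 in olaparib and 93 in DMSO. ZNF750, an epidermal differentiation factor, had 1 count in olaparib and 0 in DMSO.

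**Figure D3:**
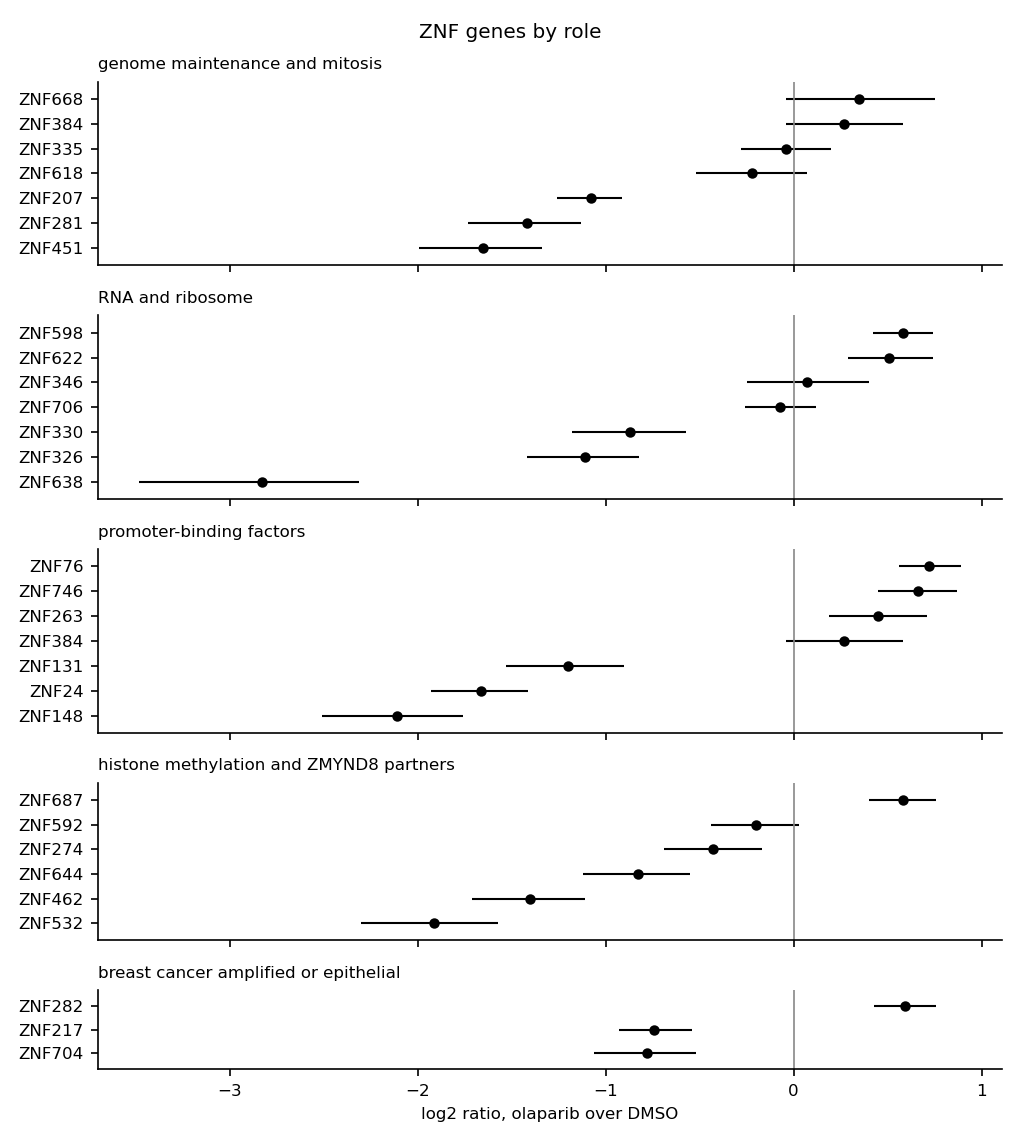
Log2 ratio of olaparib over DMSO with its 95% counting interval for the ZNF genes of 5 role lists with a mean of at least 100 counts, 1 library per condition. Each list holds genes on both sides of 0, with the widest spread in the RNA and ribosome list, from -2.83 (ZNF638) to 0.58 (ZNF598).

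Only 1 of 10 listed retroelement binders was a member. ZNF587, which recognises HERV-K elements, had 108 counts in olaparib and 172 in DMSO (-0.49, interval -0.85 to -0.13). Its near copy ZNF587B had 59 in olaparib and 97 in DMSO, and ZNF417, another close relative, had 33 in olaparib and 83 in DMSO (-1.13, interval -1.78 to -0.55), so reads may be shared among these rows. ZNF91 and ZNF93, repressors of SVA and LINE-1 elements, had 42 and 41 counts in olaparib and 57 and 50 in DMSO, with intervals of -0.87 to 0.34 and -0.74 to 0.52 that include 0. ZNF267 had 41 in olaparib and 60 in DMSO (-0.36, interval -0.98 to 0.23). The other binders under the limit had few counts. ZNF10 had 8 in olaparib and 38 in DMSO (-1.95, interval -3.38 to -0.94), and ZNF441 had 3 in olaparib and 28 in DMSO (interval -5.40 to -1.35). ZNF765 had 14 in olaparib and 42 in DMSO (-1.35, interval -2.39 to -0.50), and ZNF649 had 9 in olaparib and 23 in DMSO (interval -2.47 to -0.01). ZNF382 had 4 in olaparib and 8 in DMSO, too few counts to read a direction.

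A few more members have known roles and lie outside those lists, and they were picked after their values were seen. ZNF318 had 167 counts in olaparib and 509 in DMSO (-1.42), and ZNF445, a KRAB protein that maintains genomic imprints, had 104 in olaparib and 231 in DMSO (-0.96). ZNF609, which is also the host of a circular RNA that these counts do not separate, had 394 in olaparib and 616 in DMSO (-0.46), and ZNF395 had 345 in olaparib and 538 in DMSO (-0.46). The neighbours in name ZNF580 and ZNF581 differed, with a ratio of 0.07 for ZNF580 (186 in olaparib and 201 in DMSO, interval -0.23 to 0.36) and 1.37 for ZNF581. The LIM-domain protein ZNF185 had 279 in olaparib and 365 in DMSO (-0.21, interval -0.44 to 0.02).

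The list for the KRAB corepressor machinery also took in chromatin genes such as DNMT1, UHRF1 and DAXX, and 26 of its genes had a mean of at least 100 counts. Of these, 11 were lower by at least 0.5 log2 (42.3%, against 33.5% of all genes), 8 of them by at least 1 (30.8%, against 20.4%). Only 1 was higher by at least 0.5 (3.85%, against 28.0%) and 14 lay between, with a median of -0.29. TRIM28, the scaffold itself, had 4510 counts in olaparib and 3996 in DMSO (0.36, interval 0.29 to 0.42). SETDB1 had 82 in olaparib and 191 in DMSO (-1.03), its stabilising partner ATF7IP 151 in olaparib and 404 in DMSO (-1.23), and the HP1 protein CBX5 435 in olaparib and 1175 in DMSO (-1.25). The other HP1 proteins CBX1 and CBX3 had ratios of -0.66 and -0.27. The 3 lowest were the nucleosome remodeller SMARCAD1 (74 in olaparib and 424 in DMSO, -2.32), the HUSH complex scaffold TASOR (136 in olaparib and 509 in DMSO, -1.72) and the histone chaperone partner ATRX (69 in olaparib and 218 in DMSO, -1.47). EHMT2, a histone methyltransferase, and MBD3, a subunit of the NuRD complex, had ratios of 0.72 and 0.38. MPHOSPH8, another HUSH subunit, had 112 in olaparib and 311 in DMSO (-1.28, interval -1.62 to -0.98). SETDB1, ATF7IP, CBX5 and MPHOSPH8 were named after their values were seen. The 14 genes between the 0.5 thresholds included HDAC1 (-0.24), SUV39H1 (-0.18), MORC2 (-0.14), UHRF1 (0.18) and DAXX (0.25). Under the limit were SUV39H2 (38 in olaparib and 157 in DMSO) and CHD4 (88 in olaparib and 107 in DMSO).

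Other families of zinc finger genes served as a comparison, with no test. Their shares past 0.5 log2 stand against 33.5% lower and 28.0% higher over all genes, which are not matched for mean count. In 3 ranges of rising mean from 100 to 310 counts, 46.3%, 42.2% and 40.5% of all genes were lower. In the same ranges 22.3%, 25.4% and 23.2% of all genes were higher. ZBTB genes, which join a BTB domain to zinc fingers, had a median of -0.90, with 14 of 21 lower by at least 0.5 (66.7%) and 4 higher (19%). ZSCAN and ZKSCAN genes had a median of -0.61, with 6 of 9 lower (66.7%) and 1 higher (11.1%). KLF and SP factors had a median of -0.21, with 4 of 13 lower and 4 higher (30.8% each). ZFP symbols had a median of 0.07, with 2 of 6 on each side (33.3% each). That median is -0.11 on the deposited scale, and it also covers ZFP36 proteins, which bind RNA. Of 47 factors from other families (SOX, FOX, ETS, E2F, STAT, SMAD and IRF symbols among them), 18 were lower (38.3%) and 8 higher (17.0%), with a median of -0.04 that is 0.02 with upper-quartile scaling. ZNF symbols with a letter suffix had 3 genes past the limit, ZNF37A (35 counts in olaparib and 185 in DMSO), ZNF512B (649 in olaparib and 462 in DMSO) and ZNF385A (185 in olaparib and 77 in DMSO), with a median of 0.67, 2 higher by at least 0.5 and 1 lower. The median of the ZNF members lay between that of the ZBTB genes and that of the factors from other families.

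**Figure D4:**
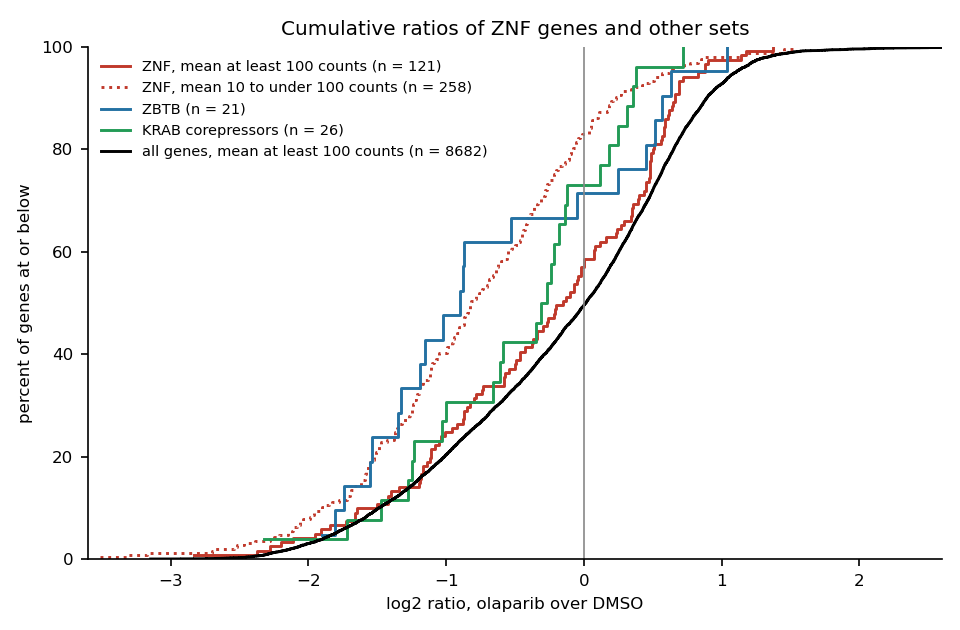
Cumulative percent of genes at or below each log2 ratio of olaparib over DMSO, for ZNF genes with a mean of at least 100 counts (red), ZNF genes with a mean of 10 to under 100 counts (dotted red), ZBTB genes (blue), KRAB corepressors (green) and all genes with a mean of at least 100 counts (black). The solid red curve runs close to the black one, while the dotted red and blue curves lie to the left, with medians of -0.82 and -0.90.

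The ZNF symbols under the limit on the mean count had lower ratios than the members. Among the 258 ZNF symbols with a mean of 10 to under 100 counts, 157 were lower by at least 0.5 log2 (60.9%, against 35.0% of 4603 genes in that range) and 17 were higher (6.59%, against 30.9%). Their median was -0.82, against -0.04 for all genes in the range. At means of 50 to under 100 (85 symbols) it was -0.84, with 56.5% lower by at least 0.5, against 41.7% of all genes. At 25 to under 50 (103 symbols) it was -0.82, with 65.0% lower, against 33.2%, and at 10 to under 25 (70 symbols) -0.78, with 42 of 70 lower, against 30.0%. The gap to all genes was thus smallest in the range next to the limit. Low medians at means of 10 to under 100 were also found in ZNF symbols with a letter suffix (-1.47, 16 of 19 lower), ZFP symbols (-1.27, 9 of 10 lower) and KLF and SP factors (-1.03, 4 of 6 lower), while ZSCAN and ZKSCAN genes had -0.48 (7 of 15 lower), ZBTB genes -0.17 (6 of 16 lower) and the factors from other families 0.35 (6 of 22 lower). Of the other ZNF symbols, 50 had a mean above 0 and under 10 and 10 had no count in either library. Examples under the limit were ZNF473 (23 counts in olaparib and 149 in DMSO), ZNF605 (13 in olaparib and 100 in DMSO) and ZNF700 (12 in olaparib and 83 in DMSO) on the lower side, and ZNF467 (141 in olaparib and 55 in DMSO) and ZNF775 (115 in olaparib and 57 in DMSO) on the higher side, chosen after their values were seen.

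Within the members, the 31 with the highest means (310 to 694 counts) had a median ratio of 0.39, against 0.03 for all 2610 genes in that range. Of these members, 9 were lower by at least 0.5 (29.0%, against 32.8%) and 11 higher (35.5%, against 28.2%). The 30 with the lowest means (100 to 129 counts) had a median of -0.47, against -0.34 for all 698 genes in that range. There 15 of 30 were lower (50.0%, against 46.3%) and 5 higher (16.7%, against 22.3%). In order of rising mean, the groups of 30 between them had medians of -0.11 and -0.24, against -0.26 and -0.20 for all genes. The median of all genes was thus also lower at lower means. Spearman's rho between ratio and mean count was 0.15 over the 121 members and 0.18 over all 8682 genes, a description across genes, which share both libraries and are not independent replicates.

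**Figure D5:**
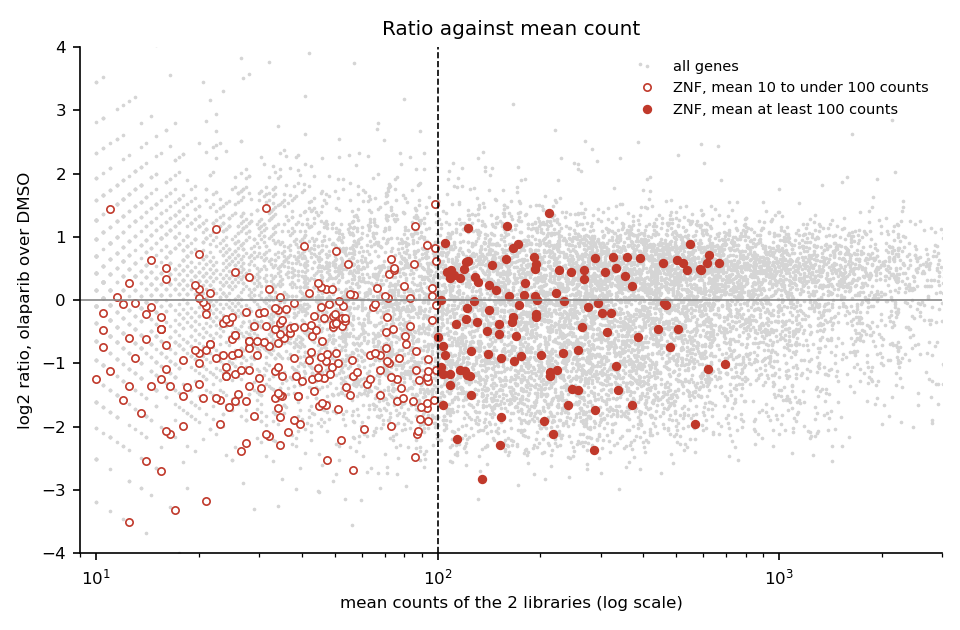
Log2 ratio of olaparib over DMSO against the mean count of the 2 libraries (log axis) for ZNF genes with a mean of at least 100 counts (filled), ZNF genes with a mean of 10 to under 100 counts (open) and all genes (grey dots); the dashed line marks a mean of 100. Open points lie mostly under 0 (median -0.82), while filled points scatter on both sides (median -0.15).

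Rows that carry a member's name with a suffix were small beside the member, except ZNF236-DT, a divergent transcript with 72 counts in olaparib and 43 in DMSO, against 69 in olaparib and 171 in DMSO for ZNF236 itself, and the copies ZNF324B (88 in olaparib and 70 in DMSO) and ZNF587B. The antisense row of ZNF451 had 1 count in olaparib and 5 in DMSO, that of ZNF22 had 9 in olaparib and 7 in DMSO, and that of ZNF687 had 6 in olaparib and 8 in DMSO. Whether the counting used strand is not stated in the labels, and overlapping genes may therefore share reads.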

How the data were processed

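Total RNA of MDA-MB-231 cells was sequenced after a strand-specific library preparation, per the labels' protocols. The deposited human table holds counts per gene symbol; the submitters' processing notes name STAR 2.6.0c, featureCounts 1.6.2 and hg19 without saying how each was used. The deposited table is named as normalized, but its values were taken as raw counts. Totals differ between libraries, and the numbers of genes at each whole number from 1 to 60 lay close to a fitted smooth curve. The chi-square per degree of freedom was 1.36 in olaparib and 0.87 in DMSO, against 2.69 to 4.46 after multiplying by 0.97 or 1.03 and rounding. No other kind of normalization was compared, and the intervals assume raw counts. Groups follow the treatment labels.

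TMM factors were computed with edgeR 4.0.16 in R 4.3.3 over the 13285 genes with a mean of at least 10 counts. Ratios were taken on scaled counts with a pseudocount of 1. Intervals are exact conditional binomial (Clopper-Pearson) intervals at 95%, computed with scipy 1.17.1. They cover counting error only, since there is 1 library per condition. Reads without molecular identifiers are not independent molecules, so the intervals may be too narrow even for counting error. The ratio and interval code was tested on simulated data. No p-value was computed.

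The members and lists were chosen with earlier results of these data known. Genes are named by these rules: the 12 highest and 12 lowest ratios, the 10 highest means, the 2 nearest the limit of 100 counts on each side with ties, the members of 6 role lists, and the 3 highest and lowest corepressors; other names were added after their values were seen. A planned split by protein domain, chromosome position, length and GC content was not made, because no human reference was used here. The mouse table was not analysed here.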

Additional observations from a re-analysis of the deposited data

How the results depend on the processing

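Equal totals, median-of-ratios factors, upper-quartile scaling, pseudocounts of 0.5 and 5, and TMM factors over all rows (chosen after seeing the data) left the member median between -0.21 and -0.09, the corepressor median between -0.35 and -0.23, and each count of members past a threshold within 1.5 times its value. Upper-quartile scaling gave 34 members higher by at least 0.5 log2 instead of 25. Under all 6 alternatives each of 53 named members kept its ratio within its own counting interval. For the scalings that outcome was fixed in advance and is no check: they shift the median of all genes by -0.06 to 0.06 log2, less than the smallest half-width of 0.16. On the deposited scale, without scaling, 11 members were higher by at least 0.5 log2 instead of 25, and 9 of the 53 left their interval. The limit on counts moved more, in part because it sets how many genes are counted. With a mean of at least 50 (206 genes), 94 were lower by 0.5 (45.6%, against 34.8% of all genes) and 64 lower by 1 (31.1%, against 21.2%). At that limit 5 were higher by 1 (2.43%, against 7.77%), and the median was -0.37. With a mean of at least 200 (56 genes), 22 were lower by 0.5 (39.3%, against 30.4%) and 13 higher by 0.5 (23.2%, against 29.1%). At that limit 16 were lower by 1 (28.6%, against 18.2%) and 1 was higher by 1 (1.79%, against 6.94%). With at least 100 counts in each library (92 genes), 23 were lower by 0.5 (25%, against 27.2%) and 13 by 1 (14.1%, against 14.6%), and the median was 0.03. With any mean above 0 (429 genes), 227 were lower by 0.5 (52.9%, against 36.1%) and 147 lower by 1 (34.3%, against 19.6%). At that limit 60 were higher by 0.5 (14.0%, against 34.8%) and 21 higher by 1 (4.90%, against 20.6%), with a median of -0.58. Among the 429 symbols 50 had a mean under 10, while only 13285 of the 22932 genes at that limit reached a mean of 10. The 2 sets therefore differ in counts, and shares and medians at that limit are not matched for it. The median minus that of all genes under the same limit was -0.16 at a mean of 100, -0.35 at 50, -0.17 at 200, -0.09 with 100 in each library and -0.64 with any mean above 0. No replicate could be left out, and no paired analysis was possible because each condition has 1 library. Counting error alone gave half-widths of 0.16 to 0.58 log2, the widest at ZNF638.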
